A study of Danio rerio with 8 samples.

Results

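Primordial germ cells are the embryonic cells that found the eggs and sperm. In the zebrafish they are set aside by maternal germ plasm, a cytoplasmic store of RNA and protein, and they migrate along the chemokine Cxcl12 to the site of the future gonad. Their RNA-binding proteins keep germ cell messages stable and translated while the same messages are cleared from the soma, and their Piwi proteins carry small RNAs (piRNAs) that silence transposons.

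The 9 genes described here are nanos3, ddx4, dnd1, dazl, piwil1, piwil2, tdrd6, tdrd7a and ca15b, chosen by name as germ cell genes, and each had its own row among the 36109 entries of the count table. The rule used their names and no levels, but earlier results of these data were known when they were chosen. RNA came from whole wild-type AB zebrafish embryos at 24 hours post-fertilization (hpf). One group received 3 µM E64d, which enters cells and blocks cysteine proteases, and the other the solvent dimethyl sulfoxide (DMSO), both from 1 to 24 hpf in AFW-PTU medium after the chorion had been cut. The labels state 0.5% DMSO for both groups, while the dilution of a 10 mM stock to 3 µM by itself brings 0.03% into the E64d wells. Each group had 4 libraries, each from a pool of 7 embryos.

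Germ cells are a small part of a whole embryo, and in bulk RNA fewer germ cells and less RNA per germ cell cannot be told apart. Libraries held 29422983 to 37309883 counts, of which the 9 genes together took 453 to 694. Levels are given as CPM, that is, counts brought to the same library size with TMM factors. CPM is not corrected for transcript length, so it compares 1 gene between libraries and not 1 gene with another. Markers of embryonic tissues (nerve, somite muscle, notochord, blood, endothelium, heart, skin, hatching gland, pigment cells and gonadal soma) were detected. Of these 34 markers 0 passed by edgeR, 3 had an unadjusted p under 0.05, 0 passed by limma-voom or DESeq2, and 4 passed with the replicate block. Over all tested genes 6.13% passed by edgeR and 20% had an unadjusted p under 0.05. With the replicate block 2580 of 22163 genes passed, and 4 of 34 is near that share. DMSO replicate 2 stood apart by a mitochondrial share of 0.847% of counts, against 1.27% to 1.97% in the other libraries.

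No germ cell gene passed the test between E64d and DMSO embryos, and all had overlapping groups. Of the 9 genes 8 had enough counts to be tested, and 0 of these 8 passed at an adjusted p under 0.05 by edgeR's quasi-likelihood test. At an unadjusted p under 0.05 the count was also 0. It was 0 with limma-voom, and 0 with DESeq2, which gave an adjusted p to 6 of them. Over all tested genes, 1359 of 22163 passed, or 6.13%, with 506 higher (2.28%) and 853 lower (3.85%) in E64d. A count of 0 among 8 is near what that share gives. At an unadjusted p under 0.05 the share over all genes was 20% (4427 genes). The groups did not overlap in 14.4% of all tested genes (3194 genes), and 0 among 8 is not far from that share. With the replicate number as a block 2580 genes passed, and still 0 of the 8. The log2 fold changes of the 8 ran from −0.51 for piwil1 to 0.41 for piwil2, with 4 above 0 and 4 below. Their median was 0.01, beside a median of 0.01 over all genes tested. The summed level of the 9 genes was 17.1 ± 2.72 CPM in DMSO and 17.0 ± 0.998 CPM in E64d (SD, n = 4 each).

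**Figure D1:**
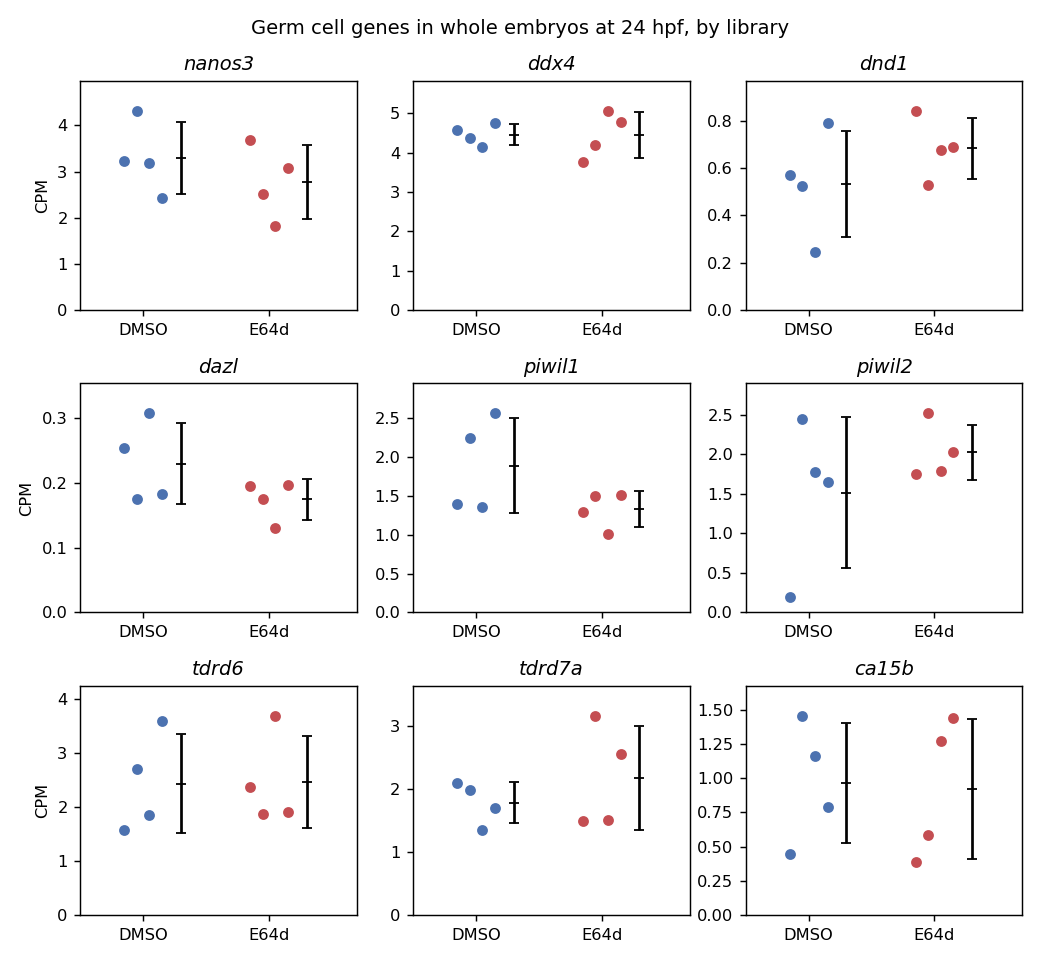
Level of each germ cell gene in CPM (y axis, from 0, a different scale in each panel) in the 4 DMSO and 4 E64d libraries (points, in order of replicate number); the bar beside the points is the mean ± SD (n = 4). The groups overlap in every panel, and piwil2 in DMSO replicate 1, at 0.190 CPM, lies far below its other libraries.

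ddx4, known as vasa, encodes a DEAD-box RNA helicase of the germ plasm and is the classical germ cell marker. In replicates 1 to 4, in that order here and for every gene that follows, it was measured at 4.59, 4.37, 4.14 and 4.75 CPM in the DMSO libraries and at 3.76, 4.19, 5.06 and 4.79 CPM in the E64d libraries. The E64d values reached both below and above the DMSO range. The means were 4.46 ± 0.263 and 4.45 ± 0.590 CPM. The 95% interval of the difference ran from 0.770-fold to 1.29-fold (adjusted p = 0.995 by edgeR), the narrowest of the 8, with 116 to 195 counts a library behind it. The sign of its log2 fold change, within 0.01 of 0, flipped to 0.08 under library totals alone.

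The RNA-binding regulators did not pass either. nanos3 encodes a translational repressor that zebrafish germ cells need to survive and migrate. Its levels were 3.23, 4.31, 3.19 and 2.44 CPM in DMSO and 3.69, 2.52, 1.82 and 3.08 CPM in E64d. The highest value was in DMSO replicate 2 and the lowest in E64d replicate 3, with the others intermixed (log2 fold change −0.25 ± 0.27 SE, with an edgeR adjusted p of 0.676). Without DMSO replicate 2 the log2 fold change was −0.09, without E64d replicate 3 it was also −0.09, and without E64d replicate 1 it was −0.42. dnd1, whose protein shields germ cell messages from microRNAs, had only 8 to 26 counts a library. It was measured at 0.569, 0.525, 0.246 and 0.792 CPM in the DMSO libraries and at 0.842, 0.527, 0.675 and 0.689 CPM in the E64d libraries. The low DMSO value was that of replicate 3, and without it the log2 fold change went from 0.36 to 0.12, while without DMSO replicate 4 it was 0.61. The interval of dnd1 ran from 0.649-fold to 2.52-fold, which leaves a 2-fold rise within it and a 2-fold fall outside it.

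dazl encodes an RNA-binding protein of the DAZ family that promotes translation in germ cells. It had 8, 6, 10 and 6 counts in the DMSO libraries and 6, 6, 5 and 6 in the E64d libraries, too few to be kept by the filter on low counts. The means were 0.229 ± 0.0625 and 0.174 ± 0.0310 CPM, and the groups overlapped. A 2-sided exact permutation test of the difference, which ignored the replicate numbers, gave p = 0.257. In that test 4 against 4 libraries can reach no less than 0.0286. In a fit without the filter dazl had an adjusted p of 0.868 by edgeR.

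The Piwi genes lay at the ends of the range. piwil1 (ziwi) and piwil2 (zili) encode Argonaute-family proteins that bind piRNAs. piwil1 was measured at 1.39, 2.24, 1.35 and 2.56 CPM in the DMSO libraries and at 1.30, 1.49, 1.01 and 1.51 CPM in the E64d libraries. Each E64d library was below the DMSO library of the same replicate number, in 4 of 4 pairs, but the E64d values reached into the lower DMSO values. The log2 fold change was −0.51 ± 0.31 SE (0.439-fold to 1.12-fold, adjusted p = 0.412 by edgeR), and with the replicate block the adjusted p was 0.346. Without DMSO replicate 4 the log2 fold change was −0.33.

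piwil2 was measured at 0.190, 2.45, 1.78 and 1.64 CPM in the DMSO libraries and at 1.75, 2.52, 1.79 and 2.03 CPM in the E64d libraries. DMSO replicate 1 held 6 counts of piwil2, where the other libraries held 54 to 86. The E64d library was the higher one in 4 of 4 same-numbered pairs, and apart from DMSO replicate 1 the groups shared 1 range. The log2 fold change was 0.41 ± 0.50 SE (0.626-fold to 2.83-fold, adjusted p = 0.721 by edgeR). It was 0.05 without DMSO replicate 1, 0.75 without DMSO replicate 2, 0.64 with the replicate block and 0.83 with limma-voom. DMSO replicate 1 held 44 counts of piwil1 and 145 of ddx4, within the range of the other libraries for both genes. It was the lowest library for 2 of the 9 genes, piwil2 and tdrd6 (50 counts), and the highest for 0. Its sum over the 9 genes, 453 counts, was the lowest of the 8 libraries.

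The Tudor genes and ca15b varied from pool to pool within both groups. tdrd6 and tdrd7a encode Tudor-domain proteins that build germ granules by binding methylated Piwi and Vasa proteins. tdrd6 was measured at 1.58, 2.71, 1.84 and 3.59 CPM in the DMSO libraries and at 2.36, 1.87, 3.69 and 1.90 CPM in the E64d libraries. Each group had a library above 3.5 CPM and a pair of libraries below 2 CPM, and the means were 2.43 ± 0.912 and 2.46 ± 0.851 CPM (adjusted p = 0.986 by edgeR). The sign of its log2 fold change, 0.02, turned to −0.14, −0.09 and −0.25 without DMSO replicate 1, DMSO replicate 3 and E64d replicate 3, and was 0.27 without DMSO replicate 4.

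tdrd7a was measured at 2.09, 1.98, 1.35 and 1.71 CPM in the DMSO libraries and at 1.49, 3.16, 1.51 and 2.56 CPM in the E64d libraries. E64d replicates 2 and 4 lay above all DMSO libraries and E64d replicates 1 and 3 lay within their range (log2 fold change 0.29 ± 0.31 SE, with an edgeR adjusted p of 0.678). Without E64d replicate 2 the log2 fold change was 0.05, and without DMSO replicate 3 it was 0.18. Its close paralog tdrd7b, at 4 to 16 counts a library, stood at 0.294 ± 0.131 and 0.332 ± 0.150 CPM (adjusted p = 0.910 by edgeR). Reads that fit both paralogs could have been split or dropped in counting.

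ca15b encodes a carbonic anhydrase expressed in zebrafish germ cells. It was measured at 0.443, 1.46, 1.17 and 0.792 CPM in the DMSO libraries and at 0.389, 0.586, 1.27 and 1.44 CPM in the E64d libraries. Both groups spanned nearly the same range, and the interval of the difference ran from 0.451-fold to 2.03-fold (adjusted p = 0.963 by edgeR). Its log2 fold change of −0.06 turned to 0.04 under library totals alone and ran from −0.36 without E64d replicate 4 to 0.21 without DMSO replicate 2.

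**Figure D2:**
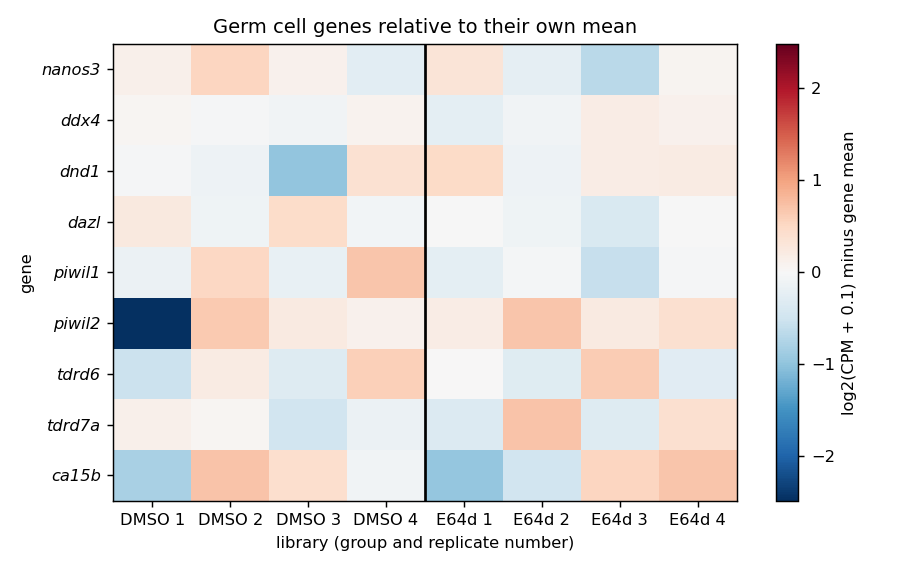
log2(CPM + 0.1) of each germ cell gene minus its own mean over the 8 libraries (colour; red above, blue below), with DMSO libraries left and E64d libraries right of the line. No library is high or low for all 9 genes, and the darkest cell is piwil2 in DMSO replicate 1.

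No pool was high or low for all of the genes. The highest value of a gene lay in DMSO replicate 2 for 2 genes, in E64d replicates 2 and 3 for 2 each, and in DMSO replicates 3 and 4 and E64d replicate 1 for 1 each. E64d replicate 3, the highest library for ddx4 and tdrd6, was the lowest for 3 others: nanos3, dazl and piwil1. The coefficient of variation within a group ran from 5.89% for ddx4 in DMSO to 62.8% for piwil2 in DMSO. Most small counts in these libraries were even, 75.9% to 80.7% of counts from 1 to 20. Of the 72 counts of the 9 genes, of any size, 59 were even. This happens when the mates of a read pair are counted separately, which was not tested here. With 2 counts taken as 1 pair, counting error alone gives 11.6% for ddx4, 18.4% for piwil2 and 54.9% for dazl. The observed variation was above that level in 12 of 18 gene and group combinations. It was below that level for ddx4 in DMSO, for dnd1, piwil1 and piwil2 in E64d, and for dazl in both groups.

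The mean standardized profile of the 8 tested genes was set against those of 16810 other genes with at least 1 CPM on average. The nearest were LOC101883618, CABZ01088149.1, pih1d2, dnajc17 and GNG4, with root mean square differences of 0.282 to 0.381 SD over the 8 libraries. The germ cell genes themselves lay farther from their own mean profile, from 0.782 SD for piwil1 to 1.33 SD for nanos3. These nearest genes are the closest of many over few libraries. None of the 5 passed the test between the groups, and the largest log2 fold change among them was −0.19 for pih1d2. These 5 were picked to match the mean profile of genes that did not pass. Their nearness and their small fold changes follow largely from that choice.

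**Figure D3:**
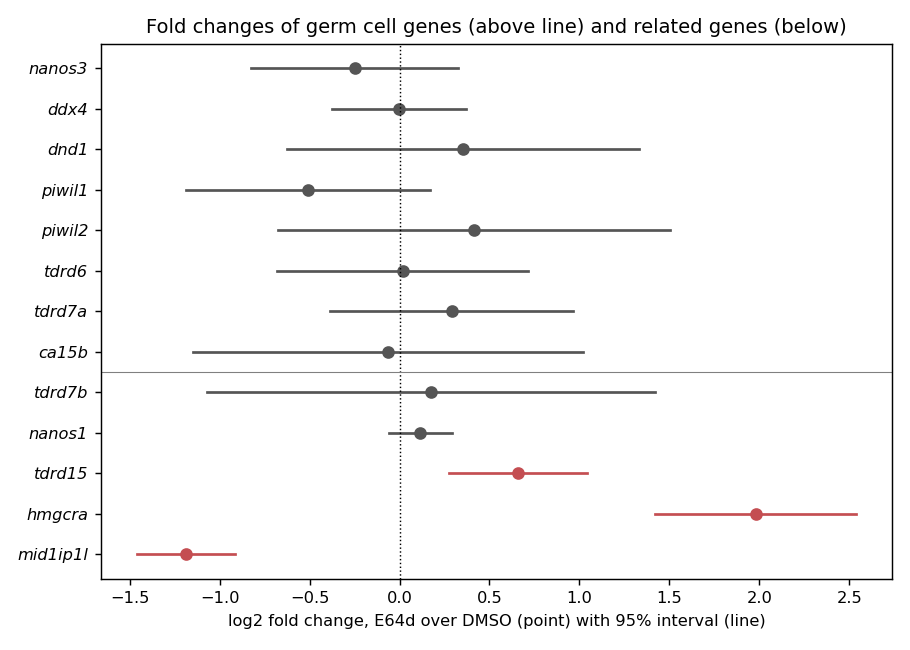
log2 fold change of E64d over DMSO (x axis; points) with its 95% interval (lines) for the 8 tested germ cell genes and, below the grey line, 5 related genes; red marks an adjusted p under 0.05 by edgeR. All 8 intervals of the germ cell genes include 0, while mid1ip1l lies below 0 and tdrd15 and hmgcra lie above it.

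Among other germ plasm and germ cell genes a single one passed. Of 19 tested genes of that list 1 fell and 0 rose, with a median log2 fold change of −0.04. Over all tested genes 6.13% passed, and 1 of 19 is near that share. At an unadjusted p under 0.05 the list held 3, beside 20% of all tested genes. With limma-voom and DESeq2 likewise 1 was called lower and 0 higher. With library totals alone, with the replicate block or without DMSO replicate 1, 1 rose. Over all genes 803 of 22163, 1040 of 22163 and 560 of 22581 rose in these fits, in that order. The gene that fell was mid1ip1l, which the zebrafish egg needs for the cytoskeletal gathering of germ plasm, and whose mammalian homolog activates the lipogenic enzyme acetyl-CoA carboxylase. It was measured at 34.9, 41.6, 35.0 and 31.7 CPM in the DMSO libraries and at 14.6, 19.5, 13.6 and 15.3 CPM in the E64d libraries. Every E64d library lay below every DMSO library (log2 fold change −1.19 ± 0.13 SE, with an edgeR adjusted p of 9.2e-05). The groups did not overlap in 14.4% of all tested genes.

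The remaining tested genes of the list stayed short of the threshold. Among them macf1a and prdm1a had an unadjusted p under 0.05 and were higher in E64d (adjusted p = 0.103 and 0.133 by edgeR). gra, a germ plasm RNA, stood at 2.20 ± 0.538 and 1.68 ± 0.495 CPM (adjusted p = 0.543 by edgeR). The germ plasm organizer gene buc had 0 to 12 counts a library and was not tested. The linker histone gene h1m, found in germ cells, had 0 to 16 counts and an adjusted p of 0.612 by edgeR. nanos1, a separate row of the table whose name is also an older name of nanos3, stood at 46.3 ± 3.07 and 50.2 ± 3.51 CPM (adjusted p = 0.484 by edgeR). nanos2, known from germline stem cells, had 0 to 8 counts and was not tested.

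Of 16 tested piRNA pathway genes other than the Piwi and Tudor genes above, 1 rose and 0 fell, with a median of −0.09 and 2 at an unadjusted p under 0.05. A count of 1 among 16 is near the 6.13% that passed over all tested genes, where 20% had an unadjusted p under 0.05. The riser was tdrd15, which the table lists as si:dkeyp-93d12.1. It was measured at 5.12, 6.00, 5.10 and 4.39 CPM in the DMSO libraries and at 8.81, 6.41, 10.0 and 7.29 CPM in the E64d libraries, without overlap (log2 fold change 0.66 ± 0.18 SE, with an edgeR adjusted p of 0.0460). The call was lost with limma-voom (adjusted p = 0.0582) and when DMSO replicate 1, 3 or 4 was left out (adjusted p = 0.0723, 0.105 and 0.106) or E64d replicate 1, 3 or 4 (0.114, 0.142 and 0.0888). The summed level of the list was 157 to 187 CPM in DMSO and 138 to 154 CPM in E64d. Most of that sum was prmt5, singled out after its values were seen, which encodes the enzyme that methylates Piwi and Vasa proteins and also acts in other cells. It stood at 111 ± 7.96 and 93.0 ± 5.27 CPM (adjusted p = 0.0727 by edgeR). With DESeq2 or the replicate block 1 gene of the list fell. Over all genes 1321 of 30947 fitted fell with DESeq2 and 1540 of 22163 with the replicate block.

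Among the genes of germ cell migration 1 of 12 rose and 0 fell, with a median of 0.03 and 3 at an unadjusted p under 0.05. Over all tested genes 6.13% passed and 20% had an unadjusted p under 0.05, and 1 of 12 is near the first share. The riser was hmgcra, an HMG-CoA reductase gene of the prenylation pathway that zebrafish germ cells need to migrate, with a log2 fold change of 1.98 ± 0.26 SE (adjusted p = 0.000488 by edgeR). Its levels were 2.15, 2.04, 3.32 and 1.40 CPM in DMSO and 8.55, 6.21, 9.92 and 10.5 CPM in E64d, with no overlap. RNA of whole embryos does not show in which cells hmgcra rose, and a change in germ cell migration was not tested. The paralog hmgcrb stood at 55.1 ± 5.07 and 52.9 ± 1.98 CPM (adjusted p = 0.751 by edgeR). The guidance chemokine gene cxcl12a stood at 32.5 ± 4.66 and 41.2 ± 3.63 CPM (adjusted p = 0.0869 by edgeR) and its receptor gene cxcr4b at 9.39 ± 1.14 and 9.55 ± 0.517 CPM (adjusted p = 0.949 by edgeR). Both are also expressed outside the germ line. With DESeq2, or without DMSO replicate 4, 2 genes of the list rose, and with the replicate block 2 rose and 1 fell. Over all genes 828 of 30947 fitted rose with DESeq2 and 439 of 22592 without DMSO replicate 4. With the replicate block 1040 of 22163 rose and 1540 fell.

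**Figure D4:**
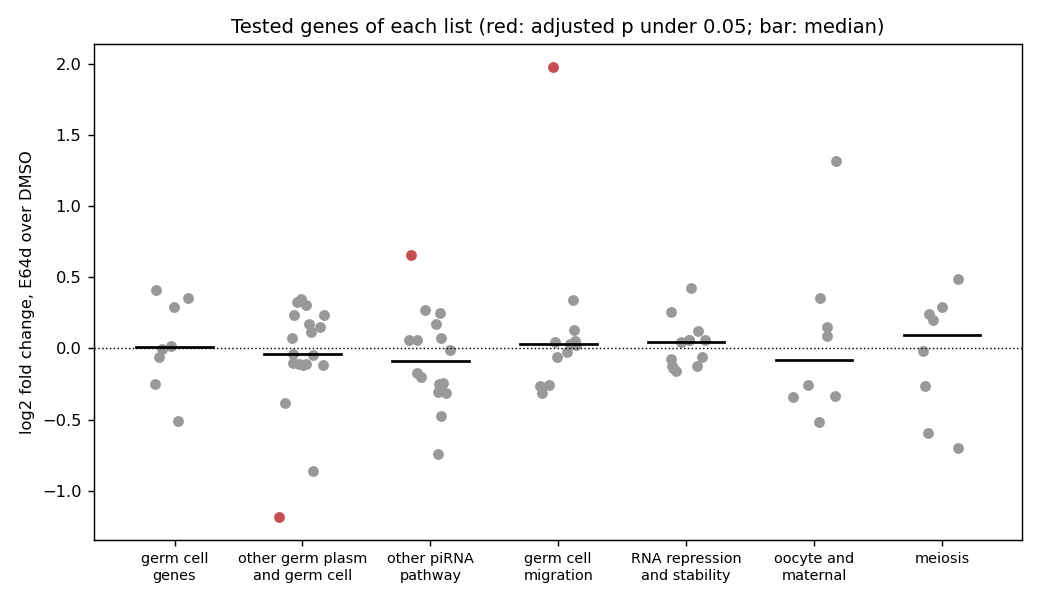
log2 fold change of E64d over DMSO (y axis) of each tested gene (points, spread sideways for sight) in the germ cell genes and in 6 related lists; black bars are medians and red points passed at an adjusted p under 0.05 by edgeR. The red points are mid1ip1l, tdrd15 and hmgcra, and all medians lie between −0.09 and 0.09.

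Among factors of RNA repression and stability, most of which also act outside the germ line, 0 of 13 tested genes rose or fell by edgeR, and 0 by limma-voom or DESeq2, with 1 at an unadjusted p under 0.05 by edgeR and a median of 0.05. The germline cap-binding gene eif4e1b of that list had 0 to 12 counts a library and was not tested. Its levels were 0.190, 0.350, 0.307 and 0.365 CPM in DMSO and 0, 0.176, 0 and 0.0656 CPM in E64d, without overlap. It was singled out after its values were seen. Among tested genes 14.4% had groups without overlap, a share that does not cover untested genes such as this one. Oocyte and maternal genes were at low levels, with a summed level of 5.40 to 6.03 CPM in DMSO and 4.76 to 6.69 CPM in E64d over 18 genes. Of these 8 could be tested and 0 passed by any of those 3 tools, also at an unadjusted p under 0.05. Meiosis genes summed to 9.85 to 12.4 CPM in DMSO and 11.0 to 13.8 CPM in E64d over 19 genes, and 0 of 8 passed by the 3 tools, with 0 at an unadjusted p under 0.05 by edgeR. Genes used as gonadal soma markers summed to 10.8 to 14.4 CPM in DMSO and 12.1 to 16.0 CPM in E64d, with 0 of 4 called. Their DMSO means were 6.32 CPM for wt1a, 4.21 for gata4, 0.956 for amh and 0.888 for nr5a1a. Whole-embryo RNA does not show which cells these came from. A count of 0 among 13, 8 or 4 genes is near the 6.13% that passed over all tested genes, where 20% had an unadjusted p under 0.05 by edgeR.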

How the data were processed

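The authors deposited a table of raw counts with a column for each library. The submitters' processing notes name the build GRCz11 and the tools featureCounts 2.0.6, STAR 2.7.10b, FastQC 0.12.1 and Trim Galore 0.6.10. Annotation, strand setting and the handling of multi-mapping reads were not given in the sources used here. Another 6 columns carry no sample name and were left out.

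Groups and replicate numbers came from the titles. The test was that of edgeR 4.0.16 in R 4.3.3, with filterByExpr at its defaults, TMM scaling, the quasi-likelihood test, and Benjamini-Hochberg adjustment over 22163 genes at 0.05. Standard errors were derived from the test statistic. Alternatives used limma 3.58.1 (voom) and DESeq2 1.42.0. The fits were tested on simulated data, where false calls were somewhat above the nominal rate with edgeR and further above it with DESeq2. Counts are not independent molecules, so errors measure the spread between pools.

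The members and the lists were chosen with earlier results of these data known. Of 153 listed genes 138 matched by name, 6 by a unique synonym in RefSeq (GRCz12tu, names only) and 9 had no match. Named were all members, tdrd7b, nanos1, nanos2, up to 3 called genes per list and direction, and the 5 genes nearest in profile (pseudocount 0.1 CPM). Other genes with values were taken from these lists after their values were seen.

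Across genes, the deviations of libraries from their group means correlated at 0.113 to 0.379 where the replicate number was shared, all above the 0.1 required, and at −0.21 to 0.0555 otherwise. On that ground, from the data and not the labels, the numbers were taken to pair the libraries. Deviations from a group mean cancel out, so a positive correlation at shared numbers by itself pushes the other correlations down. The values given are from the fit without a replicate term, unless the replicate block is named.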

Additional observations from a re-analysis of the deposited data

Results flagged for a closer look

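Of 42 sets of 4 library levels examined, 1 held a value far from the others, where chance flags about 1 in 20. nanos2 stood at 0.233 CPM (8 counts) in DMSO replicate 2 and had 0 counts in the other 3 DMSO libraries, with 0 to 2 counts in the E64d libraries.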

How the results depend on the processing

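No germ cell gene passed under any of the 15 alternatives: other scalings, no filter, DESeq2, limma-voom, the replicate block, counts divided by 2, and leaving out each library. The 8 tested genes gave 120 values, of which 15, in 3 genes, changed sign. Over all genes DESeq2 called 2149 and the replicate block 2580, against 1359. Leaving out single libraries gave 655 to 1396 calls, with 655 without E64d replicate 4, 834, 845 and 854 without E64d replicates 1, 2 and 3, and 835 without DMSO replicate 3. Library totals alone gave 803 higher and 498 lower (61.7% higher, against 37.2%). The replicate block changed no call of a gene the named-gene rule chose.

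Changes of sign, all of values that did not pass and with the cause not tested, were as follows. Under library totals alone the log2 fold changes were 0.036 for ca15b, 0.082 for ddx4, 0.056 for CABZ01088149.1, 0.038 for dnajc17 and 0.034 for GNG4. ddx4 was at 0.0050 without the filter and 0.0045 with counts divided by 2. CABZ01088149.1 was at 0.081 with limma-voom and 0.082 with the replicate block. Over the omissions of 1 library the ranges were −0.36 to 0.21 for ca15b, −0.073 to 0.069 for ddx4, −0.25 to 0.27 for tdrd6, −0.057 to 0.49 for tdrd7b, −0.26 to 0.36 for CABZ01088149.1, −0.15 to 0.066 for dnajc17, −0.14 to 0.052 for GNG4, −0.33 to 0.061 for LOC101883618 and −0.39 to 0.032 for pih1d2. Among the germ cell genes the fewest counts in total were those of dazl, dnd1 and ca15b, with 5 to 50 counts a library. Of the 15 alternatives the sign changed in 7 for ddx4, 5 for ca15b, 3 for tdrd6 and 0 for dnd1, while dazl was not tested. For ca15b the variation within the groups, 45.8% in DMSO and 55.7% in E64d, was above the 25.1% of counting error alone.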
